A study of Mus musculus with 22 samples.

Results

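The genes described here encode the proteins of the mitochondrial ribosome. They were chosen by symbol, as all protein-coding genes whose symbol starts with Mrpl (named for the large subunit) or Mrps (for the small) followed by a number. The rule found 78 of the 49671 genes listed in every library's table, 49 named for the large subunit and 29 for the small, and left out 5 symbols annotated as pseudogenes. The rule used no measured value, but the members were chosen with earlier results of these data known. Of the 78 members, 76 passed the filter on low values (a deposited CPM of 1 or more in 2 or more libraries), and 69 had reads in all 22 libraries. Mrpl53 and Mrps23 were listed at 0 reads in every library. There 3 reads, taken as an approximate upper limit for counting error at a count of 0, would be 0.0422 to 0.0975 CPM. Whether these zeros come from the annotation or the counting could not be settled, so that they may say nothing about expression.

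All 22 libraries came from cochleae of mice labelled PrestinCreERT2/+;RiboTagHA/+, input libraries included, so that no group lacks the tag allele. The Cre is driven by prestin (Slc26a5), the motor protein of outer hair cells. After tamoxifen it adds a haemagglutinin (HA) tag to Rpl22, a protein of the cytosolic ribosome. RNA held by an HA antibody (IP libraries, labelled as enriched outer hair cells) was set beside RNA of the whole cochlea with no antibody (input libraries). By the sample labels, which were followed, the ages were P8, P14, P28, 6 weeks and 10 weeks, with 3 libraries of each fraction at 10 weeks and 2 at the others, 11 IP and 11 input in all. The series' design text lists P21 in place of P28, so that the age of the libraries called P28 is not certain. The tamoxifen dose was 3 mg for each 40 g of weight before 21 days of age and 9 mg from then on, so that dose and age cannot be told apart. The labels do not say whether cochleae were pooled, and the design text calls the replicates biological.

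The mitochondrial ribosome translates the few messenger RNAs of the mitochondrial genome, which encode core subunits of the respiratory chain and ATP synthase. Its ribosomal RNAs are transcribed in the mitochondrion, but its proteins are nuclear-encoded, made on cytosolic ribosomes and imported. The messenger RNAs of the members can therefore be held by a tagged cytosolic ribosome, whereas the mitochondrial ribosome itself carries no tag. Many of the proteins have bacterial counterparts, and others are found only in mitochondria.

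Promoters of genes for mitochondrial proteins are known for sites of ETS-family factors (GABP), YY1 and NRF1, and the start regions of the members were searched for their letters. RefSeq windows on GRCm38.p6, each of 300 bases (250 before the start and 50 from it on), were found for 69 of the 78 members, 75 windows in all. Both strands were searched. The ETS letters CCGGAAG were in 26 of the 75 member windows (34.7%), beside 8.86% of all 32851 windows and 14.9% of the windows of tested protein-coding genes. The YY1 letters AAGATGGCG were in 8 member windows (10.7%, beside 1.40% and 2.53%), and the NRF1 letters GCGCATGCG were in 7 (9.33%, beside 1.75% and 3.10%). The GC box GGGCGG was in 52% of the member windows, beside 35.7% and 59.5%, the TATA letters TATAAA in 6.67%, beside 13.6% and 7.62%, and CCAAT in 40%, beside 37.4% and 37.2%. Of the 31 ETS matches, 26 began within 60 bases of the start, and the median first base was at -17, with the start base counted as 0. No ETS, YY1 and NRF1 matches overlapped each other. These are matches of letters, not measured binding. The ETS letters were in 30.2% of the 43 windows of members lower in IP and in 40.6% of the 32 other member windows.

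Windows of 4 members are printed 5′ to 3′ on the gene's strand, with ETS, YY1 and NRF1 matches in capitals, because these members are described below: Mrps21 and Mrpl52 were lower in IP over all ages, Mrps18a had the lowest difference at P28, and Mrps2 was higher over all ages. Mrps21 (chr3:95871465-95871764, minus strand) has an ETS match at 18, Mrpl52 (chr14:54426659-54426958, plus strand) has ETS matches at -47 and 2, and Mrps18a (chr17:46110754-46111053, plus strand) has an ETS match at -26 and a YY1 match at 11. Mrps2 (chr2:28467816-28468115, plus strand) has none of these letters in its window.
Mrps21: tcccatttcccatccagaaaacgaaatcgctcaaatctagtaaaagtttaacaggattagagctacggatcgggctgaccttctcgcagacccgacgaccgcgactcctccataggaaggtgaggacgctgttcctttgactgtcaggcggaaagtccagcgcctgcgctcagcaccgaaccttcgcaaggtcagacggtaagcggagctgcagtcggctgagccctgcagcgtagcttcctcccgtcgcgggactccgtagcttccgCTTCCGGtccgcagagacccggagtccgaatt
Mrpl52: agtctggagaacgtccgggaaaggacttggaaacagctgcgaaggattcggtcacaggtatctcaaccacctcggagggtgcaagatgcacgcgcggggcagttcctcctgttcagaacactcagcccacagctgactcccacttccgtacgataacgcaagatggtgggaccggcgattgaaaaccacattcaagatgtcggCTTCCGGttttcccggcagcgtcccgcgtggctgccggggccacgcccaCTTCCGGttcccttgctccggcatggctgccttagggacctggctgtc
Mrps18a: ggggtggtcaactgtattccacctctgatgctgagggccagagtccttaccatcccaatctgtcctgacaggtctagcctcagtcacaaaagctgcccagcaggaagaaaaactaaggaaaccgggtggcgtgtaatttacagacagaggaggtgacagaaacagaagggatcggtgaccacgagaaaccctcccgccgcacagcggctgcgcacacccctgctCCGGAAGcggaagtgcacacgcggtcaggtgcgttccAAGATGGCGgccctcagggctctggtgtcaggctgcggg
Mrps2: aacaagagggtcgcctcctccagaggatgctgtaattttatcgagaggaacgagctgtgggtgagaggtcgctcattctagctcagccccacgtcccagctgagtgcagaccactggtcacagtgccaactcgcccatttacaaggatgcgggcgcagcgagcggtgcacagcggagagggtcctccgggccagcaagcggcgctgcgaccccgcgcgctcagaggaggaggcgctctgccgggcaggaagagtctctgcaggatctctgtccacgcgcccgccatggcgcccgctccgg

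**Figure D1:**
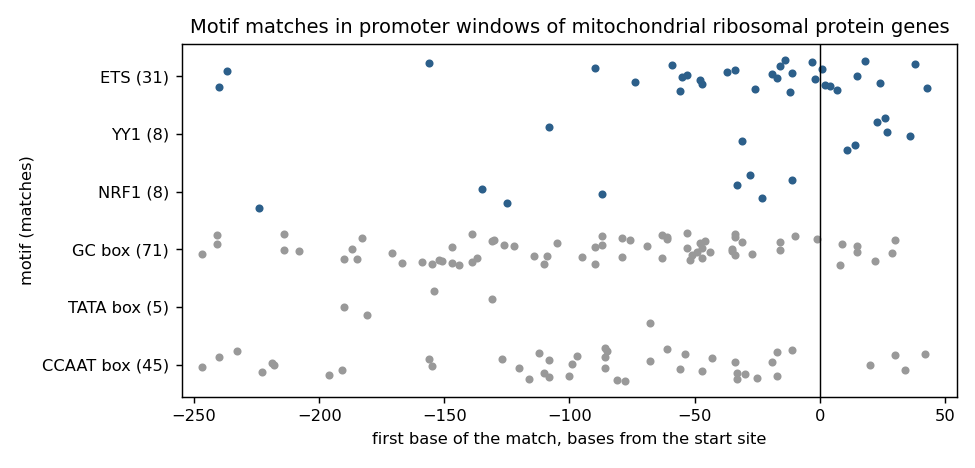
Position of each motif match in the 75 promoter windows of the members, in bases from the start site (first base of the match, start base 0), 1 row per motif with the number of matches in brackets. ETS matches (31) lie mostly close to the start, with a median of -17, whereas GC box (median -79) and CCAAT box (median -86) matches spread over the window.

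The libraries held 30757875 to 71023032 reads, of which 14978013 to 39907763 were counted to genes. Values below are scaled CPM, that is reads per 1000000 gene reads after trimmed-mean (TMM) scaling. Over all ages, 7 of 8 outer hair cell markers were higher in IP (limma, median log2 difference 2.15). The summed level was 408 to 2070 scaled CPM in IP and 156 to 362 in input. Ikzf2 rose by 2.46 (log2), while Slc26a5 itself did not pass the test (log2 0.75, SE 0.46, limma adjusted p = 0.195). At P8, P14 and P28, Ikzf2 and Ocm passed, with Lbh at P8 and P14 and Strc at P8 and P28, but no other of these markers. At 6 weeks only Ikzf2 (2.61) and Ocm (1.70) passed. The rest were not called there: Lbh 0.63, Strc 1.17, Chrna9 0.74, Chrna10 0.78, Bcl11b 2.08 and Slc26a5 -0.97. Markers of other cochlear cells and of blood, all of them detected, were mostly lower in IP: 4 of 4 stria vascularis, 4 of 5 spiral ganglion neuron, 4 of 4 Schwann cell, 4 of 4 fibrocyte and 4 of 6 supporting cell markers (1 higher, Fgfr3), and 3 of 3 each for erythroid cells, neutrophils and macrophages. Of markers shared by hair cells 5 of 7 were higher and 1 lower, of inner hair cell markers 1 of 4 was higher, and Rpl22 itself was lower (log2 -0.89). The summed fibrocyte level was 1195 to 10504 scaled CPM in IP and 3298 to 27516 in input. Nuclear RNAs (Malat1, Neat1 and Kcnq1ot1, the 3 of the 4 listed that were tested) were higher, with sums of 4536 to 64222 in IP and 2608 to 9272 in input. IP libraries also held more reads outside genes (20.2% to 47.7%, beside 11.1% to 20.4% in input). The part of these differences in the results on the members was not tested. In all, 3 libraries stood apart, also called the 3 libraries with few genes. Genes at a deposited CPM of 1 or more numbered 9853 in P8 input replicate 2. They numbered 10810 in P14 IP replicate 1 and 10870 in P28 IP replicate 2, beside 12393 to 15609 in the other libraries. P8 input replicate 2 had 58.3% of its gene reads in Gm42418, a gene that overlaps ribosomal RNA sequence, P28 IP replicate 2 had 26 members under 1 scaled CPM (0 to 10 in the other IP libraries), and P14 IP replicate 1 had 22 members over 50 (2 to 12 in the others).

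The first comparison asks which of the members' messenger RNAs were held by tagged ribosomes in proportion to the whole cochlea. Averaged over the 5 ages, 46 of the 76 tested members were lower in IP than in input and 3 were higher; 27 did not pass the test. The median log2 difference was -0.98, with a range of -2.60 to 1.49, while that of all genes tested was -0.01. The share called lower was 60.5%, beside a background of 22.9% of all 18737 genes, and the share called higher was 3.95%, beside 20.5% (limma on log2(scaled CPM + 1), adjusted p under 0.05). The log2 difference, called or not, was below 0 for 68 of the 76 (background 50.4%). Fold changes on this scale understate those of genes with low values. In bulk RNA, a lower level in IP cannot be told apart as fewer copies per outer hair cell, fewer ribosomes per copy, or more copies in the other cells of the input. Divided by symbol alone, 29 of 48 Mrpl members were lower and 2 higher (median -1.03), and 17 of 28 Mrps members were lower and 1 higher (median -0.95). The symbol is not always the place of the protein, since Mrps18a sits in the large subunit. With CPM as deposited 25 were lower and 3 higher, and without the 3 libraries that stood apart 52 were lower and 3 higher. The share of all genes called in these fits was not set beside these counts.

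**Figure D2:**
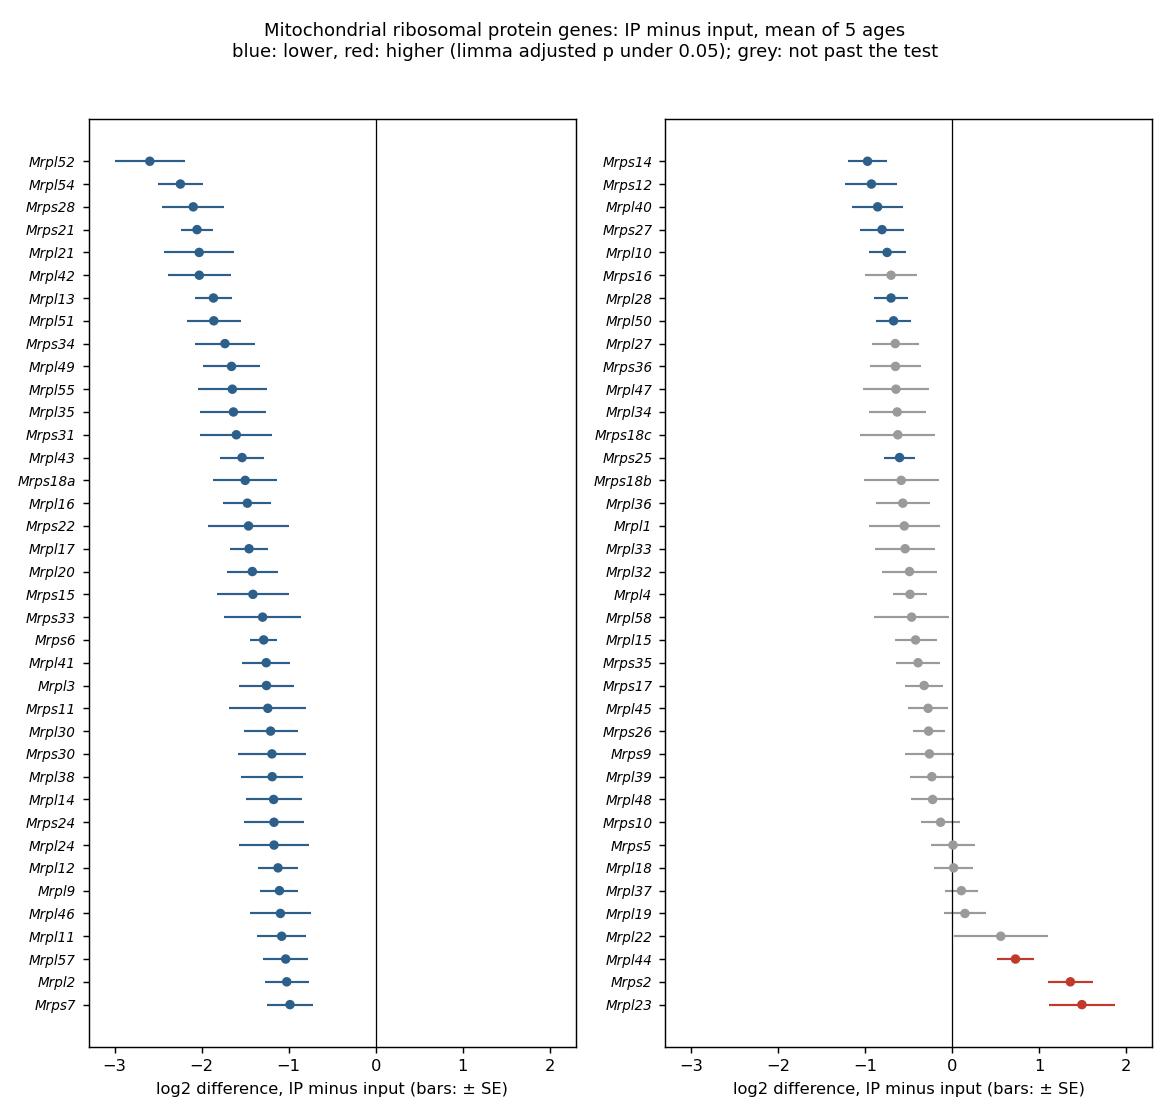
Log2 difference IP minus input (mean of 5 ages, points, with the SE as bars) of each of the 76 tested members, ordered from lowest to highest over both panels. Of these, 46 are called lower (blue) and 3 higher (red), and the values run from -2.60 (Mrpl52) to 1.49 (Mrpl23).

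Mrps21, the counterpart of bacterial S21 in the small subunit (ENSMUSG00000054312, chr3:95862634-95871519 on GRCm38, minus strand), had the smallest adjusted p of the members named. Its IP libraries were at 13.9 and 11.6 scaled CPM at P8, 8.33 and 16.3 at P14, 14.9 and 7.71 at P28, 13.4 and 9.96 at 6 weeks, and 23.3, 18.6 and 21.1 at 10 weeks. Its input libraries were at 61.3 and 42.2, 47.3 and 51.4, 68.1 and 80.8, 38.4 and 41.3, and 94.4, 77.6 and 86.7 at the same ages. Every input library was above every IP library. The log2 difference over all ages was -2.05 (SE 0.19, limma adjusted p = 1.29e-08), 4.15-fold lower in IP.

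Mrpl13, the counterpart of bacterial L13 in the large subunit (chr15:55534094-55557748, minus strand), spanned 5.26 to 18.3 scaled CPM over the IP libraries, with a median of 11.1, and 25.3 to 69.9 over the input libraries, with a median of 43.9. Its groups did not overlap either, and the log2 difference was -1.87 (SE 0.21, limma adjusted p = 2.66e-07). Mrps21 and Mrpl13 were the 2 members called lower at each of the 5 ages (2.63% of those tested, background 1.69%), a count near that of all genes. Mrps21's differences by age ran from -1.70 at 6 weeks to -2.67 at P28, and those of Mrpl13 from -1.61 at P8 to -2.59 at P14. The call at each age depended on the setting. With CPM as deposited, Mrps21 was called only at P28 and Mrpl13 only at P14 (limma adjusted p = 0.0273 and 0.0399), and in a fit of only the groups compared each was called only at 6 and 10 weeks. Mrps21 also lost a call without any 1 of 6 of the 22 libraries: P8 IP replicate 2 or P8 input replicate 1 (at P8) and each 6 week library (at 6 weeks), with limma adjusted p from 0.0548 to 0.191. Mrpl13 lost 1 or 2 calls without any 1 of 13 libraries, namely each P8 library, each 6 week library and each 10 week input library (at P8, at 6 weeks or at both), and P28 IP replicate 1 and P28 input replicate 2 (at P28), with limma adjusted p from 0.0531 to 0.278.

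Among large-subunit proteins found only in mitochondria, Mrpl52, Mrpl54, Mrpl51, Mrpl42 and Mrpl49 were lower in IP. Mrpl52 (chr14:54426909-54429756, plus strand) had the largest difference of all members, -2.60 (SE 0.40, limma adjusted p = 1.53e-05). Its IP libraries were at 5.19 and 0.0354 scaled CPM at P8, 4.82 and 5.03 at P14, 19.3 and 0.0433 at P28, 10.9 and 16.7 at 6 weeks, and 10.6, 10.5 and 11.2 at 10 weeks, while input ran from 28.7 to 63.6 (median 39.6). A pair of IP libraries, 1 at P8 and 1 at P28, was close to 0, and no IP library reached the lowest input library. Mrpl54 (chr10:81264713-81266934, minus strand) spanned 3.51 to 16.9 over the IP libraries, with a median of 6.12, and 26.5 to 52.3 over the input libraries, with a median of 32.1, a log2 difference of -2.24 (SE 0.26, limma adjusted p = 3.66e-07). Mrpl51 was at 2.51 to 52.3 in IP and at 56 to 115 in input, with medians of 21.2 and 73.7 (log2 -1.86, SE 0.31). Mrpl42, at medians of 5.78 and 22.1, and Mrpl49, at medians of 11.5 and 30.7, differed by -2.03 (SE 0.36) and -1.66 (SE 0.32). Mrpl42 alone of these 5 overlapped between the fractions (IP up to 13.9, input from 11.5). Mrpl21, the counterpart of bacterial L21, had medians of 4.32 in IP and 16.0 in input and differed by -2.03 (SE 0.40, limma adjusted p = 2.50e-04).

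In the small subunit, Mrps28 (chr3:8802146-8923918, minus strand) spanned 0.0354 to 5.68 scaled CPM over the IP libraries, with a median of 3.05, and 4.76 to 22.3 over the input libraries, with a median of 11.1, with a log2 difference of -2.10 (SE 0.36, limma adjusted p = 4.95e-05). Mrps34, a protein found only in mitochondria (chr17:24895116-24897502, plus strand), spanned 0.303 to 37.2 over the IP libraries, with a median of 16.2, and 41.0 to 79.4 over the input libraries, with a median of 47.8, a difference of -1.73 (SE 0.35, limma adjusted p = 3.27e-04). Its groups did not overlap, but 77.8% of its exon bases are shared with Nme3 and Mapk8ip3, and whether reads were counted by strand is not given in the sources used here. Over all ages, 7 members had every IP library below every input library (Mrpl13, Mrpl49, Mrpl51, Mrpl52, Mrpl54, Mrps21 and Mrps34; 9.21% of those tested, background 2.86%), and no member had the reverse (background 1.72%). Within each of the 5 ages, IP lay below input without overlap for 14 members (18.4%, background 6.91%), and above it for 0 (background 4.8%).

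Of the 8 members named by a fixed list, Mrpl12, Mrpl11, Mrps12 and Mrps7 were lower in IP. Mrpl12, part of the stalk that receives translation factors, had medians of 22.6 scaled CPM in IP and 52.1 in input (log2 -1.12, SE 0.23, limma adjusted p = 4.17e-04). Mrpl11, at the base of the stalk, had medians of 17.9 and 33.8 (log2 -1.08, SE 0.28, limma adjusted p = 0.00376). Mrps12, of the decoding centre, and Mrps7, of the small subunit's head, differed by -0.93 (SE 0.30, limma adjusted p = 0.0151) and -0.99 (SE 0.26, limma adjusted p = 0.0037). With CPM as deposited, Mrpl11, Mrps12 and Mrps7 lost the call (limma adjusted p = 0.064, 0.13 and 0.091). Mrpl58, a release factor that frees stalled mitochondrial ribosomes, did not pass (log2 -0.47, SE 0.43, limma adjusted p = 0.395), and its IP libraries ran from 0.476 to 132 scaled CPM. Without P28 IP replicate 2, where Mrpl58 was at 0.476, its difference was 0.07 (limma adjusted p = 0.85), and without P28 IP replicate 1 it was -1.0 (limma adjusted p = 0.0025).

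The 3 members higher in IP were Mrps2, Mrpl44 and Mrpl23. Mrps2, the counterpart of bacterial S2 (chr2:28468066-28471178, plus strand), was at 91.8 and 112 scaled CPM in IP at P8, 35.8 and 43.8 at P14, 44.4 and 40.9 at P28, 64.0 and 58.7 at 6 weeks, and 13.7, 67.8 and 63.4 at 10 weeks. Its input libraries ran from 10.4 to 34.3 (median 19.7). All but 1 IP library, 10wk IP replicate 1, were above every input library, and the log2 difference was 1.36 (SE 0.26, limma adjusted p = 1.70e-04). Mrpl44, a large-subunit protein with an RNase III-like fold (chr1:79776018-79781445, plus strand), spanned 12.0 to 111 over the IP libraries, with a median of 55, and 25.1 to 51.6 over the input libraries, with a median of 26.8, a log2 difference of 0.73 (SE 0.21, limma adjusted p = 0.0073). It shares 7.66% of its exon bases with Wdfy1 on the opposite strand, which was itself higher in IP (log2 0.85).

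Mrpl23, which lies at the exit of the nascent chain in the large subunit (chr7:142532686-142540747, plus strand), had few reads. It spanned 0.0866 to 26.4 scaled CPM over the IP libraries, with a median of 4.64, and 0 to 3.66 over the input libraries, with a median of 1.04, and its log2 difference was 1.49 (SE 0.38, limma adjusted p = 0.00301). Its pseudogene copy by symbol, Mrpl23-ps1, which the rule left out, went the other way, at 8.24 ± 7.24 scaled CPM in IP and 27.0 ± 5.28 in input (SD, n = 11 each). Member and copy together stood at 14.5 ± 13.3 in IP and 28.2 ± 5.01 in input. Reads of near-identical copies could not be told apart here, so that the direction for Mrpl23 is uncertain. The gene ends 34782 bases from H19, an imprinted RNA. Mrps36, the tested member nearest the filter, is now known mainly as a component of the 2-oxoglutarate dehydrogenase complex. Mrps36 stood at 0.619 ± 0.988 scaled CPM in IP and 2.01 ± 2.32 in input (log2 -0.65, SE 0.29, limma adjusted p = 0.0729), and with its 3 pseudogene copies at 6.43 ± 4.42 and 13.9 ± 6.42, lower in IP by mean either way. Mrps36 passed without P14 input replicate 2 (-0.86, limma adjusted p = 0.014), P8 input replicate 2 (-0.81, 0.035) or 10wk IP replicate 2 (-0.72, 0.049). Mrps18c, the next nearest the filter, did not pass (log2 -0.63, SE 0.43, limma adjusted p = 0.251). Mrpl48 differed by -0.23 (limma adjusted p = 0.49) and stood at 27.1 ± 18.6 in IP and 30.2 ± 8.84 in input, while with Mrpl48-ps it stood at 34.9 ± 18.3 and 55.3 ± 10.3.

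**Figure D3:**
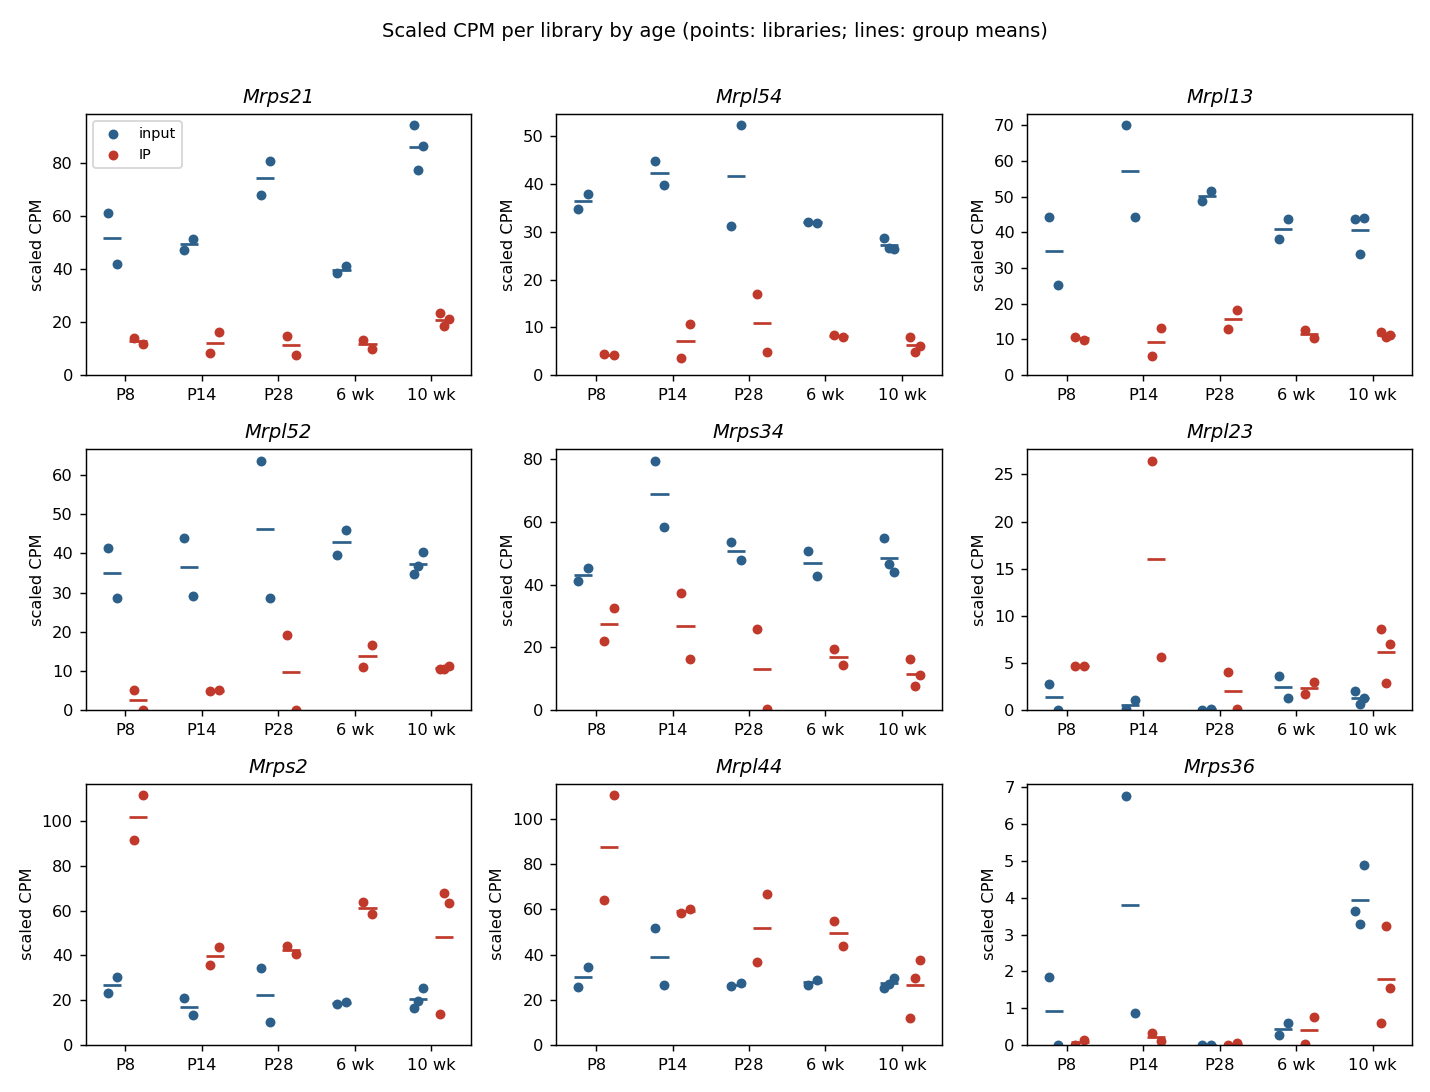
Scaled CPM of 9 members in each library by age (points; input blue, IP red; lines are group means; each panel has its own linear axis from 0). Mrps21, Mrpl54, Mrpl13, Mrpl52 and Mrps34 have all IP libraries below all input libraries, Mrps2 has all but 1 IP library above them, and Mrpl23 and Mrps36 stay below 27 scaled CPM.

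Read sharing and transcript length were set beside these differences. Of the 78 members, 33 share exon bases with another gene on the annotation, 28 of them with a gene on the opposite strand and 10 over more than 20% of their bases. Among the tested members, the 32 that share bases had 20 lower and 1 higher (median -1.04), and the 44 that share none had 26 lower and 2 higher (median -0.95). Mrps25 shares 69.8% with Nr2c2, Mrpl19 36% with Gcfc2 and Mrpl43 33.4% with Twnk; Mrpl53, listed at 0, shares 88% of its exon bases. The members' transcripts are short, with a median of 1255 bases beside 2951 for all tested protein-coding genes. The 38 shorter members (418 to 1230 bases) had a median difference of -1.19 with 26 called lower, and the 38 longer ones (1280 to 7300 bases) -0.69 with 20 called lower. Across the 76 members, log2 length and the log2 difference correlated with r = 0.24 (Spearman rho 0.29), and across 14878 protein-coding genes with r = 0.37 (rho 0.37). Genes are not independent replicates, and the part of length in the members' differences was not tested.

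Other families of short, nuclear-encoded RNAs lay on the same side. Cytosolic ribosomal protein genes had 47 of 80 lower and 5 higher (median -1.05), close to the members' -0.98. Nuclear-encoded genes of the respiratory chain and ATP synthase had 67 of 78 lower and 1 higher (median -1.61). No test was run between the families. The ribosomal RNAs of the mitochondrial ribosome, mt-Rnr1 and mt-Rnr2, which are not held by cytosolic ribosomes, differed more than any member. mt-Rnr1 ran from 62.5 to 717 scaled CPM in IP and from 400 to 21233 in input (log2 -3.35, SE 0.44, limma adjusted p = 1.76e-06). mt-Rnr2 differed by -3.96 (SE 0.41, limma adjusted p = 6.89e-08).

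**Figure D4:**
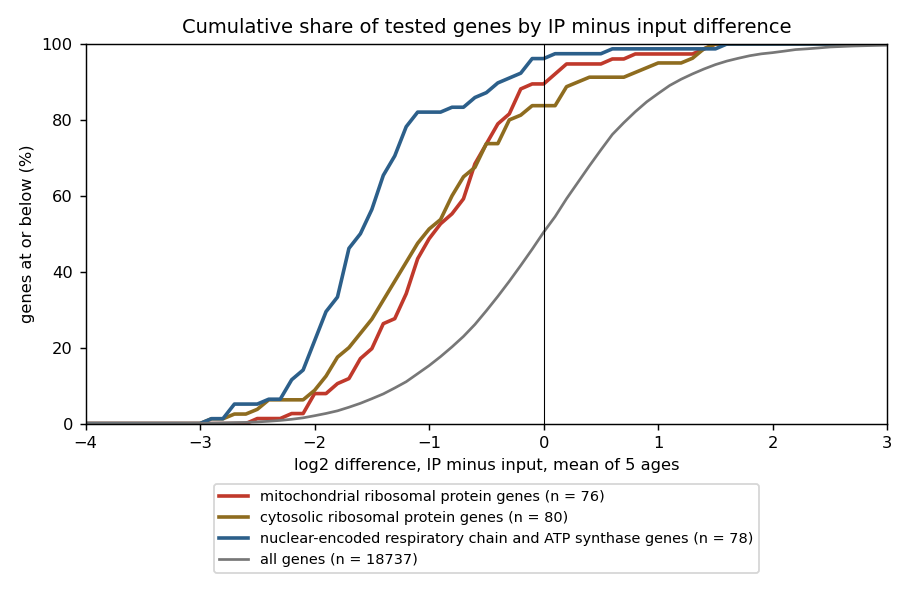
Cumulative percent of genes (y axis) at or below each log2 difference IP minus input (x axis, mean of 5 ages) for the 76 members, 80 cytosolic ribosomal protein genes, 78 nuclear-encoded respiratory chain and ATP synthase genes and all 18737 genes tested. The members' curve lies left of that of all genes and close to the cytosolic ribosomal protein genes, with medians of -0.98 and -1.05.

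The genes that build or serve the mitochondrial ribosome included both directions. Of 5 mitochondrial ribosomal proteins under other symbols, 3 were lower and 0 higher (Chchd1 -1.74, Aurkaip1 -1.26 and Gadd45gip1 -0.97, log2). Of 11 translation factors tested, 4 were lower, among them the elongation factors Tufm (-1.51) and Tsfm (-1.22), and the initiation factor Mtif2 was higher (0.84). Of 27 genes for assembly and rRNA modification, 6 were lower, with Noa1 (-1.41) and Rbfa (-1.38) the largest, and 3 were higher, led by Ybey (1.39) and Mettl17 (1.34). Of 20 genes that charge mitochondrial tRNAs, synthetases and amidotransferase subunits such as Gatc together, 6 were lower (Yars2 -2.20, Gatc -1.76). A further 2 were higher (Rars2 1.88, Wars2 1.68). Of 12 genes for mitochondrial DNA maintenance and transcription, the RNA-binding protein gene Slirp was lower (-0.96) and the helicase gene Twnk, which overlaps Mrpl43, was higher (0.72). Of 3 genes listed for the inner membrane, Letm1 was lower (-1.68). All counts are limma calls over all ages, against the same background of 22.9% lower and 20.5% higher. For the assembly and the DNA maintenance lists, the counts lower and higher were near or below these shares. They are not read as a result about those lists.

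At single ages fewer members passed. At P8, 8 of 76 were lower (10.5%, background 4.52%) and 1 higher (1.32%, background 6.11%); at P14, 10 were lower (13.2%, background 8.03%) and 1 higher (background 9.65%). At P28, 24 were lower (31.6%, background 12.6%) and 0 higher (background 9.69%), at 6 weeks 3 were lower (3.95%, background 4.09%) and 0 higher (background 4.01%), and at 10 weeks 13 were lower (17.1%, background 9.15%) and 0 higher (background 5.99%). The median log2 differences were -0.89, -1.01, -1.01, -0.68 and -0.93 in that order, each below 0 for 58 to 70 of the 76 members. At every age 45 members were below 0, called or not (background 21.1%). Called lower at 3 or more ages were 6 members: Mrpl13, Mrpl16, Mrpl54, Mrps21, Mrps28 and Mrps6 (7.89%, background 5.16%). The count at 6 weeks was near its background in this fit, where all groups share an estimate of the spread. In a fit of only the groups compared, more members were called at 6 weeks and fewer at P28. The order of the ages by count therefore depends on the fit. The direction at P8 depends on the scaling: with CPM as deposited the members' median at P8 was 0.31, with all genes shifted to 0.74. P8 input replicate 2 holds 178.8 deposited CPM for all members together, where the other inputs hold 1010 to 1691. Without the 3 libraries that stood apart, the called members numbered 13, 14, 17, 9 and 31 from P8 to 10 weeks. These counts are given without the share of all genes called in that fit.

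At P8 the members furthest below input were Mrpl52 (log2 -3.81, SE 0.93, limma adjusted p = 0.0099), Mrpl54 (-2.82) and Mrps28 (-2.56), and Mrps2 was the 1 above it (1.89, SE 0.60, limma adjusted p = 0.0444). Mrpl52 and Mrps28 were both at 0.0354 scaled CPM in P8 IP replicate 2, and without that library they no longer passed (limma adjusted p = 0.20 and 0.50); nor did Mrps2 (0.22). At P14 Mrpl13 (-2.59), Mrpl54 (-2.58) and Mrps28 (-2.45) were lowest, and Mrpl23 was higher (3.19, SE 0.88, limma adjusted p = 0.0147). Mrpl23 was at 26.4 in P14 IP replicate 1 and 5.63 in replicate 2, and without replicate 1 it did not pass (2.23, limma adjusted p = 0.16); nor did Mrpl54 (0.07) or Mrps28 (0.22). At P28 Mrps18a, Mrps24 and the large-subunit core protein Mrpl3 were lowest, by -3.82, -3.66 and -3.62. All 3 were under 1 scaled CPM in P28 IP replicate 2 (0.216, 0.0433 and 0.346) and at 22, 10.6 and 15.5 in replicate 1. Without replicate 2, Mrps18a (-1.70, limma adjusted p = 0.06) and Mrps24 (-1.93, limma adjusted p = 0.052) did not pass.

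At 6 weeks Mrpl16 (-2.15, limma adjusted p = 0.0389), Mrpl13 (-1.75) and Mrps21 (-1.70) were called, each of which lost the call when any single 6 week library was left out. At 10 weeks Mrpl42 (-2.15, limma adjusted p = 0.0361), Mrpl57 (-2.05, limma adjusted p = 0.00614) and Mrps34 (-2.02, limma adjusted p = 0.0405) were lowest. Mrpl57, a large-subunit protein, was at 3.27, 3.33 and 6.29 scaled CPM in IP and at 22.2, 16.2 and 22.8 in input at that age, without overlap. With CPM as deposited, the members named at 6 and 10 weeks, Mrpl52, Mrpl54 and Mrps28 at P8, and Mrpl54, Mrps28 and Mrpl23 at P14 lost the call. With edgeR, Mrpl52, Mrps28 and Mrps2 at P8, Mrps28 and Mrpl23 at P14, Mrps18a at P28, Mrpl16 at 6 weeks, and Mrpl42 and Mrps34 at 10 weeks lost it. In a fit of only the groups compared, no member named at P8, P14 or P28 passed. Counts of called members moved with single libraries. Without P8 IP replicate 2 there were 2 at P8, without either P8 input library 4, and without P28 IP replicate 1 or 2 there were 15. At P14 there were 4 without P14 IP replicate 1, 22 without P14 IP replicate 2, 3 without P14 input replicate 1, and 24 and 23 without P28 IP replicate 1 and 2. At P28 there were 10 without P28 IP replicate 2 and 12 without P28 input replicate 2. At 6 weeks there were 0 without any of the 6 week libraries and 7 without either P28 IP library. At 10 weeks there were 5 or 6 without 10wk IP replicate 2 or 3 or any 10wk input library, 7 without P8 input replicate 2 and 23 without either P28 IP library.

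The spread between replicates differed by group. The median SD of the members' log2 values was 1.09 in P28 IP, 0.89 in P14 IP and 0.51 in P8 IP, and 0.12 and 0.14 in input at 6 and 10 weeks. For all genes the P28 IP value was 0.59, below that of the members.

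The second comparison asks whether the members changed between young and adult ages. It averages P8 with P14 and 6 with 10 weeks and leaves out P28, so that it cannot show changes within a pair. Mrps21, for example, was higher in every 10 week input library than in both 6 week ones, as listed above. In input, adult libraries (mean of 6 and 10 weeks) against young ones (mean of P8 and P14) gave 0 called members of 76 (background 4.94%; limma), 0 at an unadjusted p under 0.05, and 0 with edgeR and with DESeq2, while a fit of only the groups compared called 4, all lower in adults. The median log2 difference was -0.06, and the members' values ran from -0.59 to 0.78. The median of the members' mean levels in input was 26.5, 32.7, 33.8, 28.2 and 27.3 scaled CPM from P8 to 10 weeks, and in IP 14.0, 19.7, 17.9, 16.9 and 13.5. In IP, 2 members passed (background 9.09%): Mrps6 rose (1.32%, background 3.83%) and Mrps26 fell (1.32%, background 5.26%). The change of the IP against input difference between young and adult was called for 0 members by limma (background 0.0694%) and edgeR and for 1 by DESeq2, with 2, 1 and 3 at an unadjusted p under 0.05.

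Mrps6, the counterpart of bacterial S6 (chr16:92058270-92112227, plus strand), was at 9.30 and 12.2 scaled CPM in IP at P8, 97.6 and 75 at P14, 99.4 and 39.0 at P28, 79.3 and 84.4 at 6 weeks, and 86.6, 61.8 and 82.0 at 10 weeks. In input it was at 63.2 and 64.3 at P8 and at 124 to 212 later. Both fractions were lowest at P8. The adult minus young difference in IP was 1.33 (SE 0.24, limma adjusted p = 0.00149), while that in input was 0.28 (SE 0.24, limma adjusted p = 0.70); the difference between these did not pass (1.05, SE 0.35, limma adjusted p = 0.347). Over all ages Mrps6 was lower in IP by -1.29 (SE 0.16, limma adjusted p = 6.29e-07). It shares 19.9% of its exon bases, mostly with Slc5a3, an inositol transporter gene on the same strand. Slc5a3 was also lowest at P8 in both fractions, at 146 and 138 in IP and 106 and 182 in input. Later it was at 783 to 1745 in IP and 675 to 1311 in input. Its adult minus young differences were 1.34 in IP and 1.71 in input (limma adjusted p = 8.63e-04 and 4.25e-05). In input, where Slc5a3 passed, Mrps6 did not (0.28). How much of the Mrps6 signal comes from transcripts shared with Slc5a3 was not tested.

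Mrps26, a small-subunit protein found only in mitochondria (chr2:130563742-130568695, plus strand), was at 30.3 and 25.9 scaled CPM in IP at P8, 86.9 and 41.4 at P14, 31.0 and 26.2 at P28, 21.5 and 23.3 at 6 weeks, and 18.6, 20 and 17.4 at 10 weeks. All adult IP libraries were below all young ones. The difference was -0.97 (SE 0.29, limma adjusted p = 0.0354). It lost the call without P14 IP replicate 1, the highest library (-0.71, limma adjusted p = 0.15), when any single 6wk or 10wk library was left out, and with CPM as deposited (-0.57, limma adjusted p = 0.62). The count of members called in IP was 1 without P14 IP replicate 1, P8 IP replicate 2, P8 input replicate 2, 10wk IP replicate 1 or 2, or any single 6wk IP, 6wk input or 10wk input library. It was 10 without P14 IP replicate 2, 4 without P28 IP replicate 1 and 5 without P28 IP replicate 2.

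**Figure D5:**
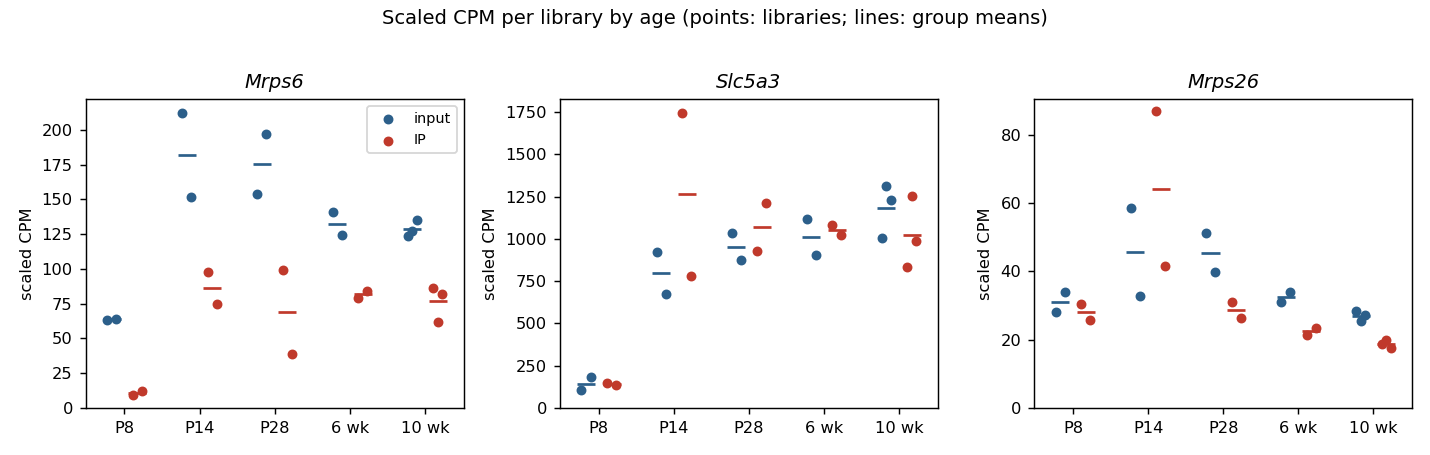
Scaled CPM of Mrps6, its overlapping neighbour Slc5a3 and Mrps26 in each library by age (points; input blue, IP red; lines are group means; linear axes from 0). Mrps6 and Slc5a3 are lowest at P8 in both fractions (Mrps6 IP at 9.30 and 12.2), and Mrps26 IP is highest in 1 P14 library (86.9) and lowest at 10 weeks (17.4 to 20).

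Levels per kilobase of transcript placed the members within one complex. In input the mean level per kilobase ran from 1.69 (Mrpl23) to 161 (Mrps6) scaled CPM, with a median of 19 over 76 members, and in IP from 0.883 (Mrps36) to 78.1 (Mrps6), with a median of 11.8. By subunit the input medians were 22.2 for the large and 11.6 for the small. Mrps6 (161 ± 54.1) and Mrps21 (140 ± 44.8) were the highest small-subunit members in input and did not differ beyond their spread over libraries, and Mrpl52 (94.1 ± 24.1) and Mrpl20 (74.2 ± 21.3) headed the large subunit with overlapping spreads (SD, n = 11 each). Mrpl52, first of the large subunit in input, was at 20.5 ± 14.8 per kilobase in IP, where Mrpl18 was highest at 42.7 ± 32.7. The members took 0.136% to 0.184% of gene reads in IP and 0.204% to 0.276% in input, except P8 input replicate 2 at 0.0646%. Deviations of the members from their group means hardly moved together, with a median pairwise r of 0.03 over 22 libraries, given as a description.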

How the data were processed

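Ribosome-bound (IP) and whole-cochlea (input) RNA was sequenced from 22 libraries. Per the submitters' processing notes, reads were aligned with TopHat to GRCm38; for its version, the counting tool, the annotation release used for counting and the use of strand, the sources used here give nothing. The authors deposited CPM values per gene, which sum to 1000000 per library including 5 entries that name no gene (left out of all tests). Every value (100%, tolerance 0.01) was a whole number of steps of 0.0141 to 0.0325 CPM, the worth of 1 read, so reads were recovered. Their number sets the precision, and the limit given for a count of 0 covers counting error only.

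From these, CPM per 1000000 gene reads were TMM-scaled (edgeR 4.0.16), because P8 input replicate 2 is dominated by 1 gene, and tested as log2(value + 1) for 18737 genes with a deposited CPM of 1 or more in 2 or more libraries. limma 3.58.1 (R 4.3.3, trended prior) fitted 10 means of age and fraction over all 22 libraries and tested 9 contrasts, two-sided, with Benjamini-Hochberg adjustment over all genes (called: adjusted p under 0.05). Levels are means ± SD over libraries. Promoter windows are RefSeq's on GRCm38.p6, and gene positions and shared exon bases come from GENCODE M21; coordinates count from 1. Python 3.11.15 was used for the tables. The procedure was tested on simulated reads, drawn with the same setting of spread in every group. The real groups differ in spread, so that the simulation does not show how well the calls hold here.

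The members, lists and tests were chosen with earlier results of these data known. Named members are the 10 largest called differences each way over all ages, 3 each way at each age and 5 each way for age contrasts, those against the majority, the highest and lowest per kilobase in each subunit, those nearest the filter, and a fixed few (Mrps2, Mrps7, Mrps12, Mrpl12, Mrpl11, Mrps36, Mrpl58 and Mrpl44). Mrpl18, Mrpl19, Mrpl20, Mrpl43, Mrpl48 and Mrps25 were named after their values were seen. Alternatives were CPM as deposited, quantile normalization, a pseudocount of 0.25, no filter, fits of only the groups compared, a replicate block, edgeR (quasi-likelihood) and DESeq2 1.42.0 on the recovered reads, and leaving out libraries.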

Additional observations from a re-analysis of the deposited data

How the results depend on the processing

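Over all ages, the count of called members (49) ranged from 40 to 55 under all settings but CPM as deposited (28), and from 48 to 53 when 1 library was left out; the members called higher numbered 3 under each setting that kept all libraries or left out the 3 with few genes. With edgeR it was 40 and with DESeq2 43. At P8 (9 called) there were 2 with CPM as deposited, 17 with quantile normalization and 1 in a fit of only the groups compared. At P14 (11) these gave 1, 18 and 0, and DESeq2 gave 17. At P28 (24) CPM as deposited gave 12, no filter 15, only the groups compared 0, edgeR 7, and CPM as deposited without the 3 libraries with few genes (chosen after seeing the data) 15. At 6 weeks (3) CPM as deposited gave 0, quantile normalization 8, only the groups compared 26, DESeq2 6, and leaving out the 3 libraries with few genes 9, or 6 with CPM as deposited. At 10 weeks (13) the same settings gave 0, 26 and 53, then 31 and 32 without the 3 libraries. For adult against young, a fit of only the groups compared gave 4 in input (0), CPM as deposited and only the groups compared gave 1 each in IP (2), and DESeq2 gave 1 for the change of enrichment (0). Leaving out 1 library gave 2 to 15 at P8, 3 to 24 at P14, 10 to 34 at P28, 0 to 7 at 6 weeks, 5 to 23 at 10 weeks, 0 in input, 1 to 10 in IP and 0 for the change of enrichment. Of 40 named values, Mrpl58 over all ages changed sign once, to 0.067 without P28 IP replicate 2, and stood at -0.998 without P28 IP replicate 1. Apart from single libraries, 341 of their values kept direction and side, 57 lost the call and 2 gained it; for single libraries these were 773, 102 and 4. The cause of these changes was not tested. The share of all genes called under each setting of this section is not set beside the counts. The counts therefore show how the calls move with the setting, and not how the members compare with all genes.

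With the replicate number as a block, 51 members were called over all ages, 11 at P8, 14 at P14, 25 at P28, 4 at 6 weeks and 16 at 10 weeks, and 0, 2 and 0 for adult against young in input, in IP and for the change. The numbers were not taken to pair the libraries: at the ages with 2 libraries a group, where both pairs give the same r by construction, r was 0.0776 at P8, 0.0991 at P14, 0.0403 at P28 and 0.304 at 6 weeks. At 10 weeks, with 3 pairs, r was 0.110, 0.172 and 0.214 and each IP library correlated best with the input library of its own number. This is a hint of pairing from the data. The sample titles give an IP and an input library the same number, but do not say that they share cochleae. Groups of 2 and 3 libraries limit the tests within an age, and levels near the filter rest on few reads.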
